A study of Mus musculus with 12 samples.

Results

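The comparison described here set small intestine that had lost both Apc and p53 against small intestine that had lost Apc alone. Its members were the probe sets of the array that were detected, at a detection p under 0.05, on all 3 arrays of either group. There were 20895 of them among the 45101 probe sets on the array, and 18047 of these carried 1 gene symbol, for 10641 genes. The rule used detection only, in either group, and not the direction or size of any difference. A probe set detected in a single group entered through that group.

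Apc is the scaffold of the complex that marks β-catenin for destruction. When it is lost, β-catenin enters the nucleus and drives the Wnt target programme of crypt cells, such as Axin2, Myc and Lgr5. p53, the product of Trp53, is a transcription factor that is held at a low level by the ubiquitin ligase Mdm2, and that on activation raises genes for cell cycle arrest, such as Cdkn1a, and for cell death, such as Pmaip1. Several of its targets, the Siah ubiquitin ligases among them, have been linked to the turnover of β-catenin, and this is why the study asked whether p53 status changes the response to Apc loss.

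The 3 double-deficient mice were Cre+Apcfl/flp53-/-, and the 3 Apc-deficient mice were Cre+Apcfl/flp53+/+. All 6 carried the AhCre transgene, in which a Cyp1a promoter drives Cre, and all received β-naphthoflavone, an inducer of that promoter, at 80 mg/kg, given as 3 injections in 1 day in the labels and as daily injections in the methods. Tissue was taken on day 5 after induction. Apc was therefore deleted in adult gut cells in which the promoter was induced, whereas p53 was absent from the germ line and so from every cell of the sample. The other 6 arrays of the series, 3 from p53-deficient mice (Cre+Apc+/+p53-/-) and 3 from AhCre-positive controls (Cre+Apc+/+p53+/+), entered the same fit and served as a second, separate comparison of mice without and with p53. Sex, age and strain were not given in the sources used here.

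Whole tissue was hybridised, 1 mouse per array, so that fewer cells of a type and less RNA per cell cannot be told apart. Values are scaled signals, in linear intensity units, and are listed for arrays gap346, gap397 and gap429 (double-deficient) and then for arrays D5fl_331u, D5fl_444t and D5fl_131u (Apc-deficient). Differences are log2 values, double-deficient minus Apc-deficient, with the standard error (SE) and the Benjamini-Hochberg adjusted p of a limma fit to all 12 arrays. Pearson correlations of the members' log2 signals were 0.955 to 0.974 among double-deficient arrays, 0.930 to 0.953 among Apc-deficient arrays and 0.922 to 0.943 between the groups. Array D5fl_444t lay farthest from its group, with an SD of 0.41 log2 units from the group mean over the members. Array gap429 held exocrine pancreas transcripts, with Ctrb1 at 5785 on it and between 7.16 and 37.5 on the other 5 arrays. Array gap397 was the lowest of the double-deficient arrays for interferon response genes.

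At an adjusted p under 0.05, 32 members (0.153%) passed, of which 16 (0.0766%) were higher and 16 (0.0766%) were lower in double-deficient intestine. At an adjusted p under 0.15, the false discovery rate that the study used for this pair of groups, 1031 members (4.93%) passed, 315 (1.51%) higher and 716 (3.43%) lower. An unadjusted p under 0.05 was seen for 1123 members (5.37%) that were higher and 2505 (11.99%) that were lower, and by 1 representative probe set per gene for 3.41% and 13.1% of genes. The arrays of the groups did not overlap for 1523 members (7.29%) that were higher and 3424 (16.4%) that were lower. Separation nearly always came with a call: of the 1031 calls at 0.15, 7 had overlapping groups. Separate groups at a called probe set are therefore no further support for the call. At other probe sets they are to be read beside these shares. The change with p53 loss differed between intestine without and with Apc loss, by the interaction term at 0.05, for 1 member (0.00479%). The direction of this split depended on scaling. The median difference of all members was -0.11 with arrays centred on their mean log2 signal, and -0.00 after quantile normalisation, under which 219 members were higher and 240 lower at 0.15. With no scaling the median was 0.32, and 1606 members were higher and 64 lower. The median difference over 1 representative probe set per gene was -0.14, and the gene lists below are set beside it. By that measure 64.8% of all genes had a negative difference, and at 0.15 3.75% were lower and 0.818% higher. Each count of calls or signs in a list below is to be read beside these shares. The lists were chosen with earlier results of these data known, so such counts are descriptions only.

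The number of calls also rested on single arrays. Without gap397 there were 98 calls at 0.15, without gap429 there were 88, and without D5fl_444t there were 1833, against 1031 with all 12 arrays. Of the 458 genes in the lists used here, 29 passed 0.15, and 2 of the 29 still did so without gap397, 1 without gap429 and 25 without D5fl_444t. With only the 6 arrays of this comparison fitted, 0 of the 29 passed, and after quantile normalisation 11 did. Every call at 0.15 given below has these limits.

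**Figure D1:**
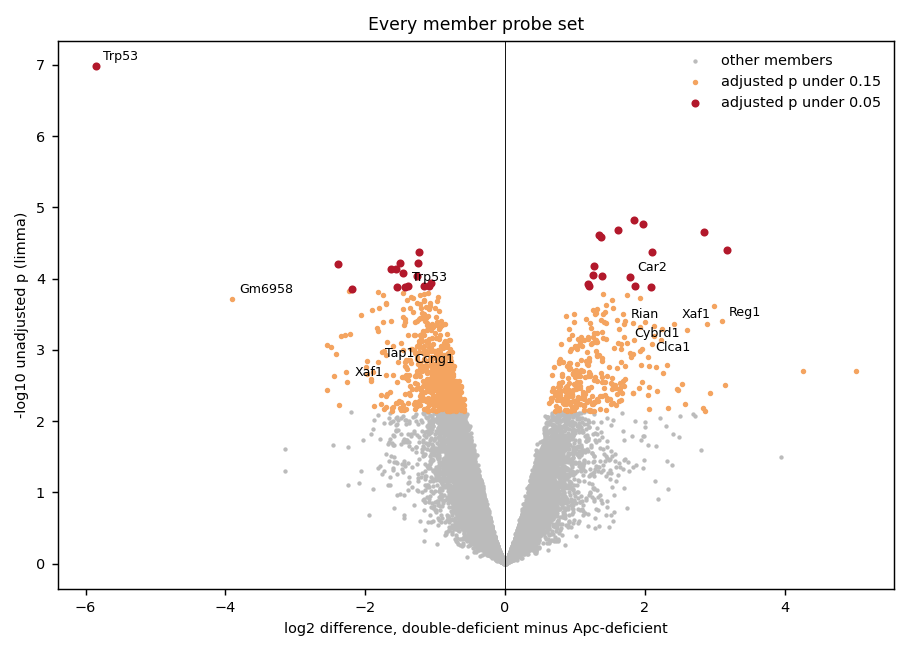
Log2 difference (double-deficient minus Apc-deficient, horizontal axis) against the negative log10 of the unadjusted limma p (vertical axis) for each of the 20895 members. Red points passed an adjusted p of 0.05 (16 higher, 16 lower), orange points passed 0.15, and Trp53 lies apart at the upper left.

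Trp53 itself was lower at both of its member probe sets, and higher at a dim probe set that was not a member. Its probe set 1426538_a_at had signals of 3.53, 15.1 and 3.87 in double-deficient intestine, against 273, 393 and 371 in Apc-deficient intestine. It was undetected on every double-deficient array and was at least 42.6-fold lower there (adjusted p = 0.0029). This call held under all 20 alternatives run. A second probe set, 1427739_a_at, was detected on all 6 arrays, at 169, 241 and 232 in double-deficient and 435, 611 and 691 in Apc-deficient intestine, a difference of -1.43 ± 0.25 (SE, adjusted p = 0.0498). The groups did not overlap at either probe set, and the p53 null label fits the first of them on each array. The third probe set, 1438808_at, was not a member, being detected on 2 double-deficient and 0 Apc-deficient arrays. It ran in the opposite direction, with 58.3, 84.2 and 69.3 in double-deficient and 15.8, 13.2 and 21.6 in Apc-deficient intestine (2.08 ± 0.37, adjusted p = 0.052).

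Apart from Trp53, 6 named genes were higher at 0.05. Car2, the cytosolic carbonic anhydrase of surface epithelium, had signals of 970, 1343 and 1843 in double-deficient and 274, 467 and 451 in Apc-deficient intestine, a difference of 1.79 ± 0.30 (adjusted p = 0.045). The lowest double-deficient array was above the highest Apc-deficient array. Ogt, the single enzyme that attaches O-linked N-acetylglucosamine to nuclear and cytoplasmic proteins, rose at 2 probe sets. At 1425517_s_at it had 838, 912 and 857 in double-deficient and 343, 361 and 392 in Apc-deficient intestine (1.25 ± 0.21, adjusted p = 0.045). The other 3 Ogt probe sets had differences between 0.49 and 1.83, and the one with the strongest signal, 1460631_at, had 0.49 (adjusted p = 0.35). Oga, which removes the same sugar, had signals of 1460, 1108 and 820 in double-deficient and 1771, 2110 and 1864 in Apc-deficient intestine, and did not pass at 0.15 (-0.80 ± 0.25, adjusted p = 0.15).

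The remaining named increases at 0.05 were in genes of RNA binding or unknown role. Lsm12, which encodes an Lsm-domain protein, had 412, 697 and 454 in double-deficient and 103, 137 and 120 in Apc-deficient intestine (2.09 ± 0.36, adjusted p = 0.0499). Gpatch8, named for its G-patch domain, had 170, 218 and 220 in double-deficient and 77.4, 83.4 and 71.5 in Apc-deficient intestine (1.38 ± 0.23, adjusted p = 0.045). Strbp, a double-stranded RNA-binding protein, had a difference of 1.18 at 1457218_at. The groups were separate at each of these probe sets, but other probe sets of the same genes gave smaller differences. Gpatch8 had 0.14 and 0.21 at its other 2 probe sets, and Strbp had between -0.57 and 0.55 at its other 5. A230072C01Rik, a transcript known by its clone name, rose by 1.62 ± 0.23 (adjusted p = 0.030). The other 9 of the 16 increases were probe sets with no entry in the probe table, and 5 of the 9 were detected on all double-deficient and no Apc-deficient arrays.

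Wtip, Mgat5 and Rbl1 were among the decreases at 0.05. Wtip, a LIM-domain adaptor of cell junctions, had 51.2, 81.1 and 146 in double-deficient and 591, 518 and 286 in Apc-deficient intestine (-2.39 ± 0.38, adjusted p = 0.040). Mgat5, which branches N-glycans on cell surface receptors, had 384, 395 and 350 in double-deficient and 1608, 937 and 901 in Apc-deficient intestine (-1.56 ± 0.25, adjusted p = 0.043). Its other probe set, 1428643_at, had -0.93 (adjusted p = 0.074). All double-deficient arrays were below all Apc-deficient arrays for both genes. Rbl1, which encodes the retinoblastoma family protein p107, had 92.5, 86.9 and 95.6 in double-deficient and 303, 349 and 180 in Apc-deficient intestine at 1425166_at (-1.54 ± 0.27, adjusted p = 0.0498). A stronger Rbl1 probe set, 1424156_at, had -0.14 (adjusted p = 0.83).

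The other named decreases at 0.05 covered protein modification, junctions and metabolism. The deubiquitinase Yod1 fell by 1.64 log2 units, the cytokine Il17d by 1.5, the CCCH zinc finger gene Zc3h12c by 1.46, the PHD finger gene Jade2 by 1.38 and the palmitoyltransferase Zdhhc14 by 1.25. Gtpbp10, a GTP-binding protein of mitochondrial ribosome assembly, fell by 1.24, Sugp2, a G-patch protein linked to splicing, by 1.23, Pkp4, an armadillo-repeat protein of junctions, by 1.15, the electron transporter Cyb561 by 1.08 and Abhd13, of the hydrolase fold family, by 1.05. Double-deficient arrays were below Apc-deficient arrays in all of them. Other probe sets of 5 of these genes did not pass 0.05. The other probe sets of Yod1 and Gtpbp10 had -0.46 (adjusted p = 0.59) and -0.31 (adjusted p = 0.48), and that of Pkp4 had -0.92 (adjusted p = 0.17). Zdhhc14 had between -1.11 and -0.28 at its other 4 probe sets, and Abhd13 had between -0.97 and 0.06 at its other 4, with -0.25 (adjusted p = 0.59) at the one of highest signal. None of the named genes at 0.05 other than Trp53 kept this threshold when gap397 was left out.

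**Figure D2:**
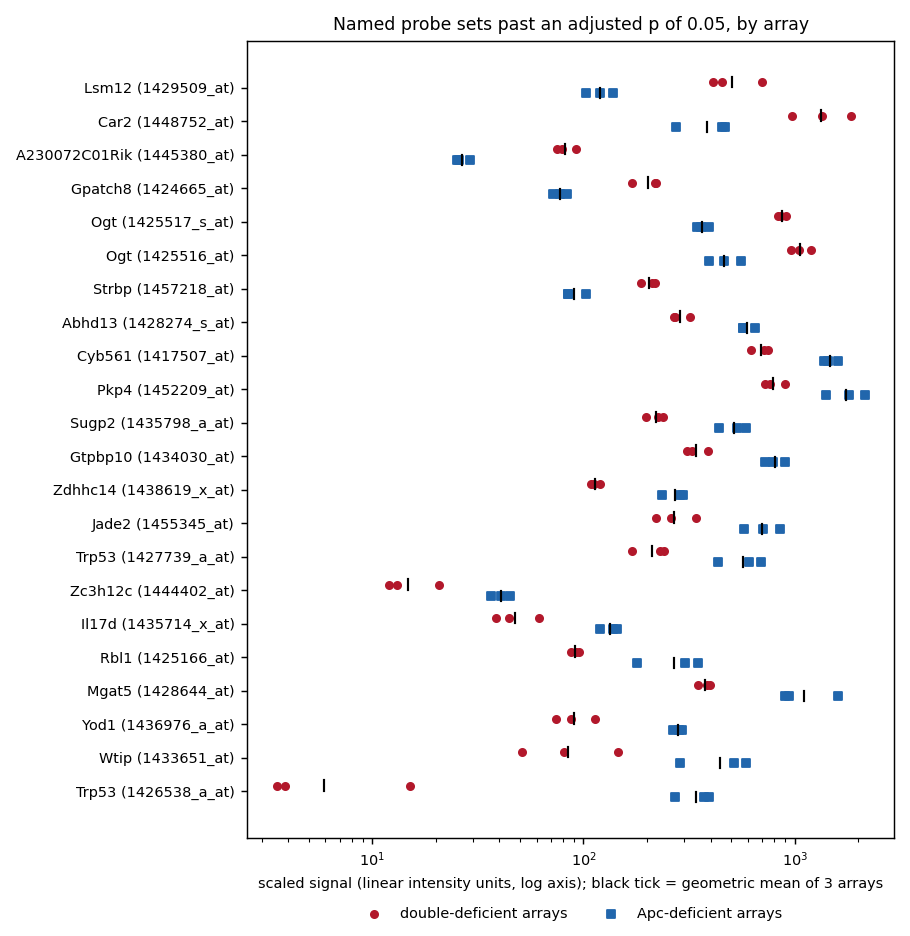
Scaled signal (log axis) on each double-deficient array (red circles) and each Apc-deficient array (blue squares) for the 22 named probe sets past an adjusted p of 0.05, in order of the log2 difference, with black ticks at the geometric mean of 3 arrays. The groups do not overlap in any row, as for nearly all called probe sets, and Trp53 at the bottom has the widest gap.

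p53 target genes were lower as a group of values. Of 45 genes listed, 32 had a member probe set, and 27 of the 32 had a negative difference, as did 64.8% of all genes with a member. The list median was -0.38, beside -0.14 for all genes. At 0.15, 5 were lower and 0 higher, where 3.75% of all genes were lower and 0.818% higher. The median was -0.33 after quantile normalisation and between -0.45 and -0.35 when any 1 array was left out. In mice that kept Apc, the same 32 genes had a median of 0.05 between p53-deficient and control intestine, and 15 of the 32 had a negative difference there. All genes with a member had a median of 0.15 in that comparison, and 33.9% of them had a negative difference.

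The 5 target genes that fell act in antigen presentation, the cell cycle and cell death. Tap1, the transporter that loads peptides for MHC class I and also an interferon-induced gene, had signals of 667, 287 and 778 in double-deficient and 2031, 1984 and 1613 in Apc-deficient intestine (-1.82 ± 0.43, adjusted p = 0.095). Ccng1, cyclin G1, a feedback partner of Mdm2, had 475, 458 and 354 in double-deficient and 1081, 956 and 1380 in Apc-deficient intestine (-1.40 ± 0.34, adjusted p = 0.099). Pmaip1, the BH3-only death protein Noxa, had 458, 486 and 389 in double-deficient and 719, 1676 and 816 in Apc-deficient intestine (-1.17 ± 0.30, adjusted p = 0.11). Both groups were separate for all 3 genes, and the Pmaip1 signal of D5fl_444t was well above those of the other Apc-deficient arrays. Trp53inp1, a stress-induced cofactor of p53, fell by 0.90 (adjusted p = 0.12). Ei24, a membrane protein of the endoplasmic reticulum, fell by 0.75 (adjusted p = 0.14). After quantile normalisation 1 of the 5, Ccng1, still passed 0.15. None of the 5 passed it without gap397 or without gap429, and all 5 did without D5fl_444t.

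The best known target did not pass. Cdkn1a, the cyclin-dependent kinase inhibitor p21, had 1162, 1239 and 937 in double-deficient and 1069, 2241 and 1281 in Apc-deficient intestine (-0.40 ± 0.31, adjusted p = 0.55), and the groups overlapped. Mdm2 had 428, 426 and 461 in double-deficient and 485, 734 and 484 in Apc-deficient intestine (-0.35 ± 0.28, adjusted p = 0.57). Phlda3, an inhibitor of Akt signalling, had 97.2, 103 and 103 in double-deficient and 157, 232 and 179 in Apc-deficient intestine (-0.89 ± 0.39, adjusted p = 0.29). The groups did not overlap for Mdm2 and Phlda3, as for 16.4% of all members in the lower direction.

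Promoter sequence was read from RefSeq (GRCm38.p6), from 250 bases before to 50 bases after each gene start. A window was available for 25 of the 32 p53 target genes, and 10 of the 25 held the p53 consensus half-site, a palindrome so that both strands are covered by 1 search. Only exact matches were taken. A stretch with a mismatch, also one next to a marked half-site, stayed in small letters, and a pair that included one was not counted. Over all genes with a window, 9.55% held it. A pair of exact half-sites with a spacer of up to 13 bases was found in 1 of the 25 genes, Cdkn1a, and in 0.0731% of all windows. The windows of Ccng1 and Ei24, which fell, and of Cdkn1a, which did not pass, are shown 5′ to 3′ because they set the sequence beside the values above, with half-sites in capitals. A match is a description of these letters and not a bound site.
Ccng1, chr11:40755237-40755536, minus strand: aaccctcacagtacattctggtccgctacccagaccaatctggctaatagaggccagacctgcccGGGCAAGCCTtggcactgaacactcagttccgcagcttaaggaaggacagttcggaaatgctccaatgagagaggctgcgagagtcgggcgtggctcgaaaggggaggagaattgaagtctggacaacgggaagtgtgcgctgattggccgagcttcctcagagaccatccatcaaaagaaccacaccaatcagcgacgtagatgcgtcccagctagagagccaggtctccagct
Ei24, chr9:36797285-36797584, minus strand: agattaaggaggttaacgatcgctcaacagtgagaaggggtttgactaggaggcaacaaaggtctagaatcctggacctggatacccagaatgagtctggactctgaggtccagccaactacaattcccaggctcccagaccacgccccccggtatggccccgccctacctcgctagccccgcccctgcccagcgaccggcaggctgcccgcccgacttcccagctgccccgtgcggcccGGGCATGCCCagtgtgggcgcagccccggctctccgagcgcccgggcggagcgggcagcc
Cdkn1a, chr17:29090729-29091028, plus strand: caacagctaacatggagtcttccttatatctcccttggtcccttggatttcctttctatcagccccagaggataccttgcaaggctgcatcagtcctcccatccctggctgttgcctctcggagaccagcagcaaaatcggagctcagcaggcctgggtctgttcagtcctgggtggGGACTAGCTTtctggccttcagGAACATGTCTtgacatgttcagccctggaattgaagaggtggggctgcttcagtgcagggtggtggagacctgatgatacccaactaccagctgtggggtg
Of the 5 target genes that fell, 3 had a window, and that of the third, Tap1, held 0 half-sites. The half-site of Ccng1 began 185 bases before the gene start, that of Ei24 10 bases before it, and those of Cdkn1a 73 and 51 bases before it. The table held 2 windows for Cdkn1a, and the other had no half-site.

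Calls among other genes around p53 were in the lower direction. Of 15 regulators of p53 with a member, 1 was lower and 0 higher at 0.15. Rchy1, the ubiquitin ligase Pirh2, had signals of 621, 582 and 627 in double-deficient and 785, 1147 and 1183 in Apc-deficient intestine (-0.74 ± 0.20, adjusted p = 0.12). In the apoptosis list 3 of 22 were lower and 0 higher, where 3.75% of all genes were lower, with a median of -0.14 beside -0.14 for all genes. Bcl2l1, which encodes the survival protein Bcl-xL, had 344, 412 and 386 in double-deficient and 943, 610 and 674 in Apc-deficient intestine (-0.94 ± 0.22, adjusted p = 0.092). Bak1, a pore-forming death effector, had 573, 880 and 767 in double-deficient and 1343, 1279 and 1706 in Apc-deficient intestine (-0.97 ± 0.25, adjusted p = 0.11). Bmf, a BH3-only protein, fell by 1.01 (adjusted p = 0.13). The groups were separate for the 3 genes, and these include both a survival gene and genes of cell death. After quantile normalisation none of the 3 passed (adjusted p between 0.16 and 0.18).

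No gene passed 0.15 among 21 of the DNA damage response (median -0.21), 19 of the cyclin-dependent kinase inhibitors and RB family (median -0.12) or 29 of proliferation (median -0.25). Unadjusted p under 0.05 was seen in the lower direction for 3, 2 and 3 of them, and in the higher direction for 0 in each list, where 13.1% of all genes were lower and 3.41% higher by the same measure. Mki67, the proliferation antigen Ki-67, had 1944, 1716 and 1243 in double-deficient and 2405, 2049 and 2769 in Apc-deficient intestine (-0.57 ± 0.26, adjusted p = 0.30).

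Wnt target genes lay near the median of all genes. Of 28 with a member, 17 had a negative difference, where 64.8% of all genes did, with a median of -0.09 beside -0.14. At 0.15, 2 were lower and 0 higher, where 3.75% of all genes were lower and 0.818% higher. After quantile normalisation the median was 0.11, and without scaling it was 0.34, so that the sign of the list median changed with scaling. Tiam1, an exchange factor for Rac, had signals of 368, 252 and 290 in double-deficient and 733, 626 and 646 in Apc-deficient intestine (-1.15 ± 0.24, adjusted p = 0.074). Dkk3, a member of the Dickkopf family of secreted proteins, had 111, 78.7 and 93.1 in double-deficient and 168, 177 and 186 in Apc-deficient intestine (-0.92 ± 0.22, adjusted p = 0.094). Both were lower on every double-deficient array.

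The feedback inhibitor Axin2 pointed the other way without passing. It had 2123, 2841 and 2251 in double-deficient and 1128, 2068 and 1238 in Apc-deficient intestine (0.74 ± 0.25, adjusted p = 0.19). The groups did not overlap for Axin2, as for 7.29% of all members in the higher direction. Ccnd1, cyclin D1, had 1679, 1879 and 1632 in double-deficient and 4151, 1764 and 4519 in Apc-deficient intestine (-0.89 ± 0.34, adjusted p = 0.23), with D5fl_444t at the level of the double-deficient arrays. Myc had 1087, 2456 and 2029 in double-deficient and 1890, 2029 and 1469 in Apc-deficient intestine (-0.02 ± 0.35, adjusted p = 0.98). Among 22 components of the Wnt pathway, the receptor gene Fzd6 fell, with 104, 127 and 123 in double-deficient and 336, 208 and 302 in Apc-deficient intestine (-1.23 ± 0.33, adjusted p = 0.12), and no other component passed.

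Of the genes that the study followed by quantitative PCR, 17 had a member, and 0 passed 0.15. Lect2, Habp2 and Siah1b were among those without a member. By quantitative PCR, on an earlier day than these arrays, the paper reported Slc39a14 and Habp2 as different between these genotypes. It reported Siah1b as lower without p53, and Axin2, Lect2, cyclin D2, Mash2, Lef1 and Cd44 as higher. For Myc and Fzd7 it reported no difference. An unadjusted limma p under 0.05 was seen for 3 that were higher and 2 that were lower, where 3.41% of all genes were higher and 13.1% lower. The study had chosen part of this list from these same arrays, Slc39a14 among them, so these counts are a description only. Siah1a, a ubiquitin ligase and p53 target, had signals of 265, 357 and 271 in double-deficient and 407, 622 and 469 in Apc-deficient intestine (-0.74 ± 0.25, adjusted p = 0.18). Nucb2, the precursor of nesfatin, had 60.5, 64.1 and 62.9 in double-deficient and 194, 175 and 196 in Apc-deficient intestine (-1.59 ± 0.56, adjusted p = 0.20). Slc39a14, a zinc and iron importer, had 1558, 1732 and 1587 in double-deficient and 940, 1238 and 1076 in Apc-deficient intestine (0.59 ± 0.21, adjusted p = 0.21). The groups were separate in each of these 3 genes, as for 16.4% of all members in the lower and 7.29% in the higher direction. The transcription factor gene Lef1 and the receptor gene Fzd7 had differences of 0.46 and 0.34, with adjusted p of 0.29 and 0.37.

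Crypt stem cell genes showed 0 calls in 14, with a median of -0.20. Lgr5, the receptor that marks crypt base stem cells, had 573, 522 and 559 in double-deficient and 529, 437 and 457 in Apc-deficient intestine (0.22 ± 0.21, adjusted p = 0.64), and the groups overlapped. Olfm4 and Ascl2 had differences of -0.19 and 0.24.

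**Figure D3:**
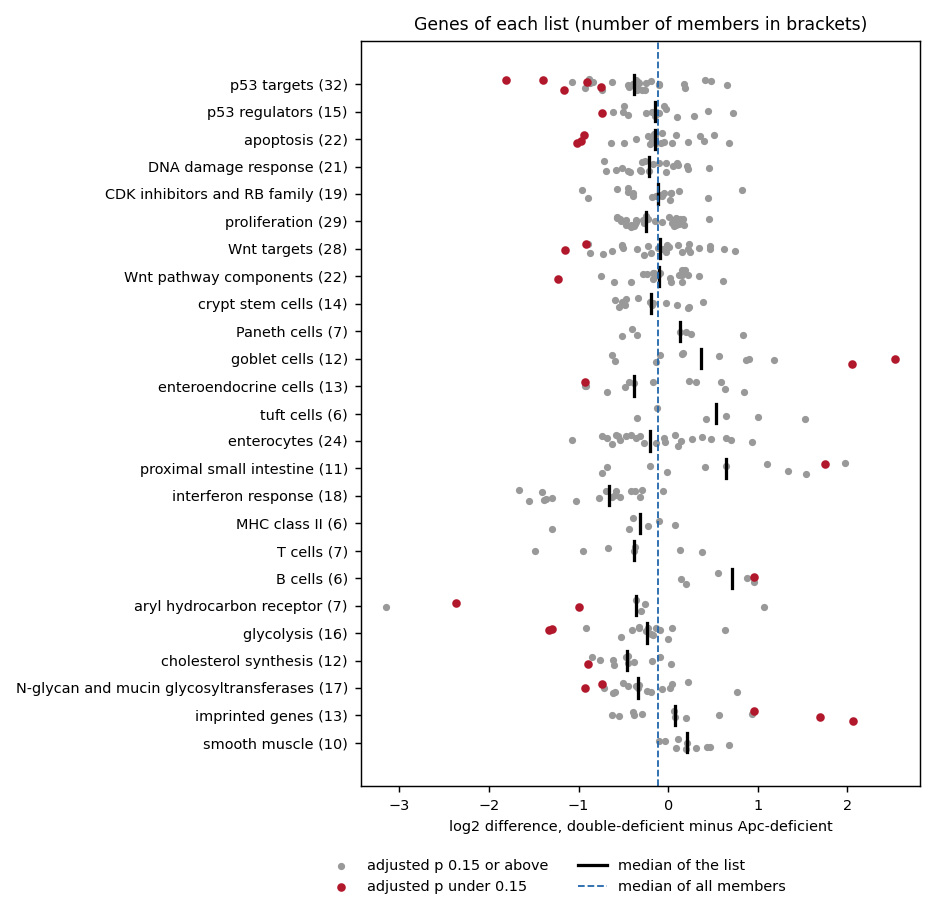
Log2 difference (double-deficient minus Apc-deficient, horizontal axis) of each gene in 25 lists, with red points past an adjusted p of 0.15, black bars at the median of each list and a dashed line at the median of all members (-0.11). p53 target and interferon response genes lie mostly left of the line, while goblet cell genes and those of the proximal small intestine lie mostly to its right.

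Some genes of secretory and proximal epithelium were higher. Of 12 goblet cell genes, 2 were higher and 0 lower at 0.15, where 0.818% of all genes were higher and 3.75% lower. The goblet cell median was 0.37, and it ranged from 0.21 without gap397 to 0.54 without gap429. Clca1, a secreted mucus protein, had signals of 1402, 1299 and 711 in double-deficient and 121, 293 and 518 in Apc-deficient intestine (2.05 ± 0.47, adjusted p = 0.090). Agr3, a disulfide isomerase of secretory cells, had 292, 223 and 161 in double-deficient and 15.3, 41.5 and 85.6 in Apc-deficient intestine (2.53 ± 0.67, adjusted p = 0.11). Neither gene overlapped between the groups. The membrane mucin Muc13 of the same list had -0.63 (adjusted p = 0.19).

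Cybrd1, the ferric reductase of the duodenal brush border, had 879, 1145 and 1368 in double-deficient and 238, 464 and 326 in Apc-deficient intestine (1.75 ± 0.38, adjusted p = 0.080). It was 1 of 11 genes of the proximal small intestine, a list with a median of 0.64 and no other call. That median ranged from 0.15 without D5fl_331u to 0.92 without D5fl_444t. Among 9 carbonic anhydrases Car7 also rose, with 159, 248 and 325 in double-deficient and 138, 109 and 81.9 in Apc-deficient intestine (1.13 ± 0.33, adjusted p = 0.14). Which stretch of intestine was sampled on each array was not given in the sources used here, and its part in these differences was not tested. Exocrine pancreas genes moved with one of the arrays: their summed signal was 32752 on gap429, against 3739 and 4682 on the other double-deficient arrays and 2865 to 4221 on Apc-deficient arrays. Reg1, a secreted protein of pancreas and gut that was named after its value was seen, had 831, 1234 and 3161 in double-deficient and 118, 231 and 187 in Apc-deficient intestine (3.10, adjusted p = 0.063). All double-deficient arrays were above all Apc-deficient arrays for Reg1, with the highest signal on gap429. The part of pancreas transcripts in the Reg1 difference was not tested.

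No gene passed 0.15 among 24 enterocyte genes, 7 Paneth cell genes and 6 tuft cell genes, with medians of -0.20, 0.13 and 0.54. The sign of each median turned on single arrays. The enterocyte median was -0.60 without D5fl_331u and 0.11 without D5fl_131u, the Paneth cell median was -0.17 without D5fl_131u, and the tuft cell median was -0.17 without D5fl_444t. Lyz1, the lysozyme of Paneth cells, had 198, 225 and 189 in double-deficient and 234, 266 and 280 in Apc-deficient intestine (-0.35 ± 0.23, adjusted p = 0.47). Tac1, which encodes the precursor of substance P, was the only called gene of 13 enteroendocrine genes. It had 328, 402 and 257 in double-deficient and 626, 631 and 597 in Apc-deficient intestine (-0.93 ± 0.22, adjusted p = 0.097). Among 10 genes of smooth muscle and 10 of fibroblasts and endothelium there were 0 calls, with medians of 0.21 and 0.02.

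Interferon response genes were all on the low side, and their values turned on 1 array. All 18 with a member had a negative difference, as did 64.8% of all genes, with a median of -0.67. None passed 0.15, and 4 had an unadjusted p under 0.05, where 13.1% of all genes were lower by the same measure. Mx1, an antiviral GTPase, had signals of 313, 61.4 and 443 in double-deficient and 995, 561 and 485 in Apc-deficient intestine (-1.66 ± 0.70, adjusted p = 0.27). Ifih1, the RNA sensor Mda5, had 1252, 706 and 1274 in double-deficient and 2128, 1612 and 2760 in Apc-deficient intestine (-1.02 ± 0.33, adjusted p = 0.17). Gbp2, a guanylate-binding protein, had 256, 129 and 168 in double-deficient and 376, 338 and 643 in Apc-deficient intestine (-1.29 ± 0.44, adjusted p = 0.19). Array gap397 was the lowest of the double-deficient arrays for all 18 genes. The list median was -0.17 without gap397, beside -0.15 for all members in that fit, and -1.03 and -0.98 without gap346 and without gap429.

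**Figure D4:**
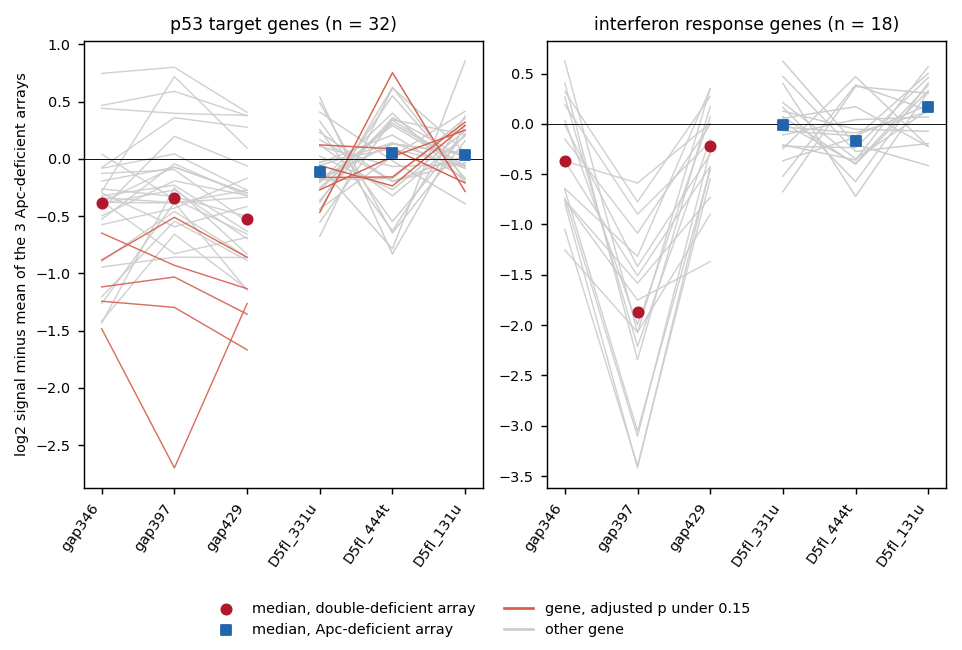
Log2 signal minus the mean of the 3 Apc-deficient arrays (vertical axis) on each array for 32 p53 target genes and 18 interferon response genes, 1 line per gene, red where the adjusted p was under 0.15, with large symbols at the median of each array. The p53 target medians of the 3 double-deficient arrays are all below those of the Apc-deficient arrays, while the interferon medians are lowest on gap397.

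Immune cell genes showed 1 call. Mzb1, a chaperone of antibody-secreting B cells, had 330, 577 and 583 in double-deficient and 195, 286 and 273 in Apc-deficient intestine (0.95 ± 0.27, adjusted p = 0.13). The 6 B cell genes all had positive differences, with a median of 0.71 that was 0.32 without gap429, where the B cell marker Ms4a1 was at 341 against 49.9 to 66.3 on the other 5 arrays. There were 0 calls among 7 T cell genes, 10 myeloid genes and 6 MHC class II genes. The enteric nervous system and red blood cell lists had no member.

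A pair of glycolysis genes and 1 gene of cholesterol synthesis passed 0.15, all of them lower. Hk2, the inducible hexokinase, had signals of 960, 1145 and 988 in double-deficient and 3756, 2380 and 1796 in Apc-deficient intestine (-1.29 ± 0.29, adjusted p = 0.083). Pfkfb3, which makes the activator of phosphofructokinase, had 167, 168 and 95.1 in double-deficient and 480, 363 and 242 in Apc-deficient intestine (-1.33 ± 0.30, adjusted p = 0.083). These were the calls among 16 glycolysis genes, where 3.75% of all genes were lower at 0.15. All double-deficient arrays were below all Apc-deficient arrays for both. The other glycolysis genes did not pass. The median of the 16 was -0.24, beside -0.14 for all genes, and it was -0.04 after quantile normalisation, 0.19 without scaling and 0.00498 array SDs with the deposited scores. Hmgcs1, of the cholesterol pathway, had 3146, 2351 and 2165 in double-deficient and 4472, 4652 and 4913 in Apc-deficient intestine (-0.89 ± 0.26, adjusted p = 0.13). In that list 11 of 12 genes had a negative difference (median -0.46), as did 64.8% of all genes. Of 17 glycosyltransferases, Galnt1, which starts mucin-type O-glycans, fell by 0.74 (adjusted p = 0.14), and Mgat5 was the other call, at its representative probe set 1428643_at.

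Genes of the aryl hydrocarbon receptor, the sensor through which β-naphthoflavone induces the Cre, differed between arrays. Cyp1b1, one of its cytochrome targets, had 731, 190 and 500 in double-deficient and 2913, 4468 and 735 in Apc-deficient intestine (-2.37 ± 0.69, adjusted p = 0.14). Tiparp, its repressor, had 193, 160 and 175 in double-deficient and 339, 494 and 259 in Apc-deficient intestine (-1.0 ± 0.25, adjusted p = 0.11). Cyp1a1 had 230, 59.96 and 72.7 in double-deficient and 1966, 3786 and 94.5 in Apc-deficient intestine (-3.15 ± 1.43, adjusted p = 0.30). D5fl_131u lay near the double-deficient arrays for both cytochromes. The part of the inducer in other differences was not tested.

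Imprinted noncoding RNAs of a single locus rose together. Meg3, Rian and Mirg are transcribed from the maternal Dlk1-Dio3 domain. Meg3 had signals of 991, 753 and 1173 in double-deficient and 214, 626 and 89.7 in Apc-deficient intestine (2.06 ± 0.55, adjusted p = 0.12). Rian had 428, 239 and 345 in double-deficient and 115, 141 and 63.7 in Apc-deficient intestine (1.70 ± 0.34, adjusted p = 0.064). Mirg had 203, 163 and 290 in double-deficient and 111, 125 and 94.1 in Apc-deficient intestine (0.96 ± 0.27, adjusted p = 0.13). None overlapped between the groups, and these were the calls among 13 imprinted genes (median 0.07), where 0.818% of all genes were higher at 0.15. The paper had already listed Rian and Gtl2 (Meg3) as altered in the double-deficient samples of these same arrays. The count is therefore a description only. In mice that kept Apc, the differences between p53-deficient and control intestine were 0.13, -0.23 and -0.14 for Meg3, Rian and Mirg.

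Detection separated the groups completely for 399 members, with 261 detected on all double-deficient and no Apc-deficient arrays and 138 the other way round. Their median signal was 63.4, beside 274 for all members and 57.0 for the 2735 probe sets that missed membership by 1 array. These 399 entered through the group that detected them, so their separation came with the rule and is a description only. Detected probe sets numbered 21602 to 23249 on double-deficient and 21593 to 21865 on Apc-deficient arrays. Of the calls at 0.15, 155 of the 315 higher and 645 of the 716 lower were detected on all 6 arrays. Among genes detected only without p53, Defa31, an alpha-defensin of Paneth cells, had 434, 289 and 220 in double-deficient and 19.5, 21.2 and 18.3 in Apc-deficient intestine, 15.4-fold higher (adjusted p = 0.25). Its probe set ends in _x_at and may read related defensins. Etnk1, an ethanolamine kinase, had 73.6, 63.2 and 97.5 in double-deficient and 18.02, 22.8 and 4.87 in Apc-deficient intestine at 1439972_at, at least 5.43-fold higher (adjusted p = 0.069). H2-T3, a nonclassical MHC class I gene, had 1117, 648 and 710 in double-deficient and 21.99, 341 and 528 in Apc-deficient intestine (adjusted p = 0.38), with D5fl_331u far below the other Apc-deficient arrays. The mast cell protease Mcpt2 was at least 4.19-fold higher (adjusted p = 0.097).

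Among genes detected only with p53, Gm6958 had the largest such fold after Trp53. It had 28.8, 14.7 and 10.8 in double-deficient and 289, 573 and 91.6 in Apc-deficient intestine at 1426936_at, 14.9-fold lower (-3.90 ± 0.71, adjusted p = 0.052). Rassf10, of the Ras-association family, was at least 4.87-fold lower (adjusted p = 0.23), and Bmpr1b, a bone morphogenetic protein receptor, at least 3.41-fold lower (adjusted p = 0.13). For each fold given for genes detected in a single group, a dim signal was raised, where lower, to a floor. The floor was the lowest signal that any probe set detected throughout that group had on the same array. Where no signal was below the floor, as for Defa31 and Gm6958, the figure is the fitted fold and not a lower limit. None of these folds allows for the spread between arrays.

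A second pair of groups in the series, p53-deficient and control mice, differed in p53 with Apc intact and shared no array with the first. Both pairs took their spread from the same fit. Array codes of both groups without p53 begin with gap or GAP, and those of both groups with p53 do not. The labels do not say what these codes mark, so it and p53 status cannot be told apart in either pair. In it 223 members (1.07%) were higher and 151 (0.723%) were lower at 0.15. Calls in both comparisons and in the same direction numbered 27 higher and 19 lower. These were 8.57% of the 315 higher and 2.65% of the 716 lower calls after Apc loss, and 12.1% and 12.6% of the calls with Apc intact. Another 9 members were called in both with opposite signs. Of the members higher at 0.15 in double-deficient intestine, 80% also had a positive difference with Apc intact, where 64.2% of all members did. Of those lower, 41.1% had a negative difference with Apc intact, where 35.8% of all members did.

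Of the 46 members called in both comparisons and in the same direction, 28 had 1 symbol, for 25 genes. Xaf1, an interferon-induced regulator of apoptosis, moved in opposite directions at its probe sets. At 1443621_at it had 1216, 714 and 2002 in double-deficient and 358, 123 and 255 in Apc-deficient intestine (2.42, adjusted p = 0.064), and 1671, 818 and 772 in p53-deficient and 56.6, 92.9 and 90.1 in control intestine (3.71, adjusted p = 0.017). At 1443698_at it had 746, 94.3 and 243 in double-deficient and 971, 1444 and 1332 in Apc-deficient intestine (-2.26, adjusted p = 0.11), and 233, 216 and 134 in p53-deficient and 836, 1254 and 998 in control intestine (-2.42, adjusted p = 0.11). The groups were separate in all 4 contrasts, so that no direction can be given for the gene as a whole. Xaf1 lies on chromosome 11, as does Trp53, 154 genes away in the annotation.

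Gm6958 was lower in both comparisons at both of its probe sets, with 1426936_at at 27.3, 8.12 and 33.2 in p53-deficient and 214, 185 and 101.4 in control intestine (-3.03, adjusted p = 0.10). Etnk1 at 1439972_at had 55.6, 46.2 and 78.0 in p53-deficient and 4.49, 11.2 and 7.73 in control intestine (3.00, adjusted p = 0.0495). Mptx1, a mucosal pentraxin of gut epithelium, had 4389, 6592 and 3371 in double-deficient and 444.3, 1086 and 1850 in Apc-deficient intestine (2.26, adjusted p = 0.10), and 4160, 4264 and 7414 in p53-deficient and 891, 1385 and 401 in control intestine (2.69, adjusted p = 0.075). Ogt at 1425517_s_at, Il17d, Zc3h12c and the second Trp53 probe set were also called in both. All of these kept separate groups with and without Apc.

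**Figure D5:**
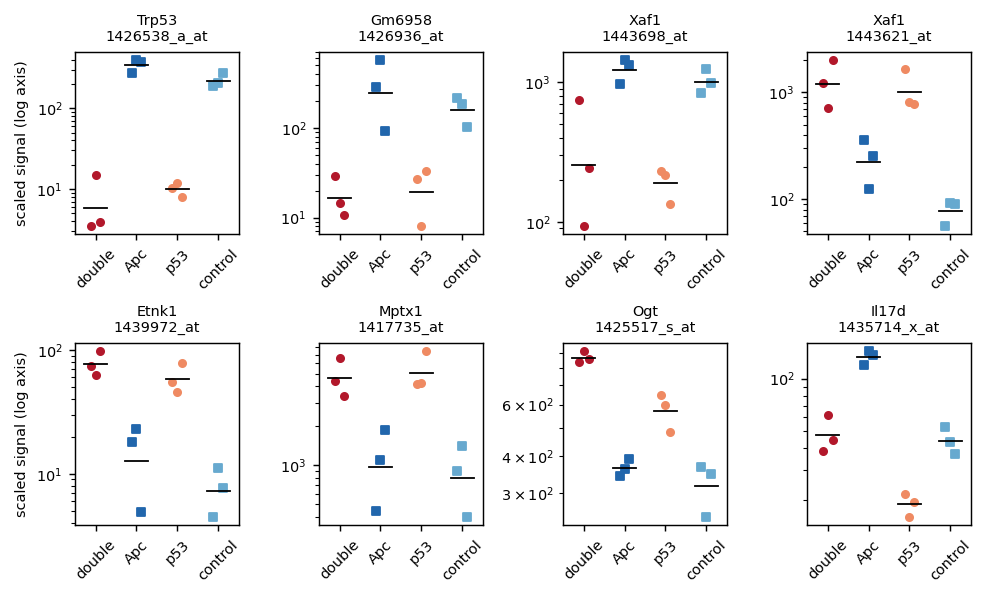
Scaled signal (log axis) on each array of double-deficient, Apc-deficient, p53-deficient and control mice for 8 probe sets called at an adjusted p of 0.15 in both comparisons of mice without and with p53, with bars at the geometric mean of 3 arrays. Each probe set moves the same way in both pairs, and the 2 probe sets of Xaf1 move in opposite directions.

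The genes beside Trp53 showed little change. Of the 50 annotated genes on either side, 35 had a member, and by their representative probe sets 0 were called at 0.15, with a median of -0.06. One further probe set among them was called, 1451246_s_at of the mitotic kinase Aurkb, with 169, 211 and 218 in double-deficient and 388, 347 and 380 in Apc-deficient intestine (-0.91 ± 0.27, adjusted p = 0.14). The representative Aurkb probe set had -0.52 ± 0.22 (adjusted p = 0.27), and the groups were separate at both.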

How the data were processed

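RNA from small intestine of 12 mice, 3 per genotype, was hybridised to Affymetrix MOE430_2 arrays, 1 mouse per array. The authors deposited unscaled signal intensity values and a detection p-value for each probe set and array. They also deposited a normalised table, in which each score was the log signal of a probe set minus the mean of its array, divided by the array's SD, after screening at a detection p under 0.2. The detection columns of double-deficient mice carry the genotype but no mouse, and for this group they were therefore used only as a count of arrays with detection.

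The fit used the 36336 probe sets that reached a detection p under 0.2 on any array. Signals below 1 (895 values) were set to 1, put on the log2 scale, and shifted so that every array had the same mean. limma 3.58.1 in R 4.3.3 was fitted with a mean per genotype over 12 arrays (8 residual degrees of freedom), and p-values were adjusted by Benjamini-Hochberg over the 36336 probe sets. The study used SAM at a 15% false discovery rate, and limma at 0.15 stands in its place. The procedure was tested on simulated data with known changes. Array number limits the precision, and 0 calls in a list do not show that its genes did not differ. The labels do not say whether mice shared litters, and p-values measure only the spread between these mice.

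The members and gene lists were chosen with earlier results of these data known. Named genes were up to 15 in each direction past 0.05, up to 6 in each direction detected in a single group, up to 5 of each list (those past 0.15 first, then by size), the genes the study measured by quantitative PCR, and called neighbours of Trp53. Other named genes, such as Cdkn1a, Mdm2, Axin2 and Xaf1, were chosen after their values were seen. A gene was represented by its member probe set with the highest mean signal. Probe set names came from the platform annotation: 18047 members had 1 symbol, 535 had several and 2313 were not in the probe table. Alternatives were quantile normalisation, no scaling, the deposited scores, scaling, fit and adjustment over members only, no screen, a floor of 20, a variance trend, 6 arrays only, all member probe sets of a gene and leaving out each array.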

Additional observations from a re-analysis of the deposited data

Results flagged for a closer look

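The effect of p53 loss differed between intestine without and with Apc loss at 1 member, 0.00479% of all members, by the interaction term of the limma fit at an adjusted p under 0.05. This was 1449576_at of Eif1ax, a translation initiation factor, with an interaction of -2.75 (adjusted p = 0.045). It had signals of 358, 298 and 285 in double-deficient and 295, 295 and 412 in Apc-deficient intestine (-0.08), and 185, 142 and 158 in p53-deficient and 20.4, 29.99 and 26.2 in control intestine (2.67, adjusted p = 0.0036). The groups overlapped with Apc lost and were separate with Apc intact. The other Eif1ax probe sets, 1419736_a_at and 1437071_at, had adjusted p of 0.72 and 0.30 for the same term. The interaction at 1449576_at still passed 0.05 without D5fl_331u, D5fl_444t or d5wt_323u. It did not pass when any other single array was left out (limma adjusted p between 0.057 and 0.13).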

How the results depend on the processing

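With 3 arrays per group, calls moved with most settings. Calls at 0.05 (32 as reported) numbered 14 after quantile normalisation, 85 without scaling, 11 from the deposited scores, 241 with scaling, fit and adjustment over members only, 11 with no screen, 182 with a floor of 20, 334 with a variance trend, 5 with 6 arrays only, and 1 to 317 when 1 array was left out. Calls at 0.15 (1031) numbered 459, 1670, 589, 1931 and 673 under the first 5 of these, 1790 with the trend, 50 with 6 arrays and 88 to 1833 when 1 array was left out. The interaction count (1) was 3 after quantile normalisation, with the deposited scores and with the floor of 20, 1975 without scaling, 7 over members only and 0 to 66 when 1 array was left out. Of the 315 and 716 calls at 0.15, 30.6% were higher, against 47.7% after quantile normalisation, 96.2% without scaling, 45.9% over members only and 45.7% with the floor of 20.

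The call of Trp53 1427739_a_at (-1.43) was lost after quantile normalisation (-1.28), without scaling (-1.0), with the deposited scores (-0.60 array SDs), with no screen (-1.43), with 6 arrays (-1.43), and in 10 of 12 fits that left out 1 array. Over the 12 the difference was -1.62 to -1.27, and the call held at -1.62 without D5fl_331u and at -1.38 without D5fl_444t. Trp53 1438808_at (2.08) passed 0.05 without scaling (2.50), with the floor of 20 (1.59), with the trend (2.08) and in 2 of 12 fits that left out 1 array, without GAP901 and without GAP940 (2.08 in both). Over the 12 the difference was 1.92 to 2.27. The p53 target median (-0.38) was 0.047 without scaling and -0.15 with the deposited scores. The Wnt target median (-0.09) was 0.11 after quantile normalisation, 0.34 without scaling, 0.050 with the deposited scores, -0.0057 over members only, -0.015 with the floor of 20, -0.026 over all member probe sets, and -0.19 to -0.082 when 1 array was left out. Without scaling, Mdm2 at 1457929_at and 1423605_a_at and Cdkn1a at 1424638_at changed sign, to 0.11, 0.079 and 0.030. Of 2260 values of 113 genes under alternatives, 1419 kept their direction and side of the threshold, 767 lost the call and 71 gained one. No paired analysis was possible because the labels give no replicate numbers. The deposited detection headers carry a code of unstated meaning that differs between all 4 genotypes, so that what it marks and genotype cannot be told apart in either comparison of mice without and with p53. The cause of these changes was not tested.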
